A study of Mus musculus with 42 samples.

Results

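The comparison concerns 2 Hox factors of limb levels in the spinal cord, HOXC6 and HOXC10, 24 h after each was induced in mouse cells on the way to spinal neurons. Its members are the 10000 HOXC6 events and the 10000 HOXC10 events with the most assigned ChIP reads, out of 17898 and 26859 events on chromosomes 1 to 19 and X, and out of 751098 events in the 15 lists read here. An event is a position at which the authors' caller placed a binding site. An event was called shared when the other list, in full, held any event within 100 bp, and was called HOXC6-alone or HOXC10-alone when it did not. With the shared events of both lists merged, there were 7336 shared sites, 3900 HOXC6-alone sites and 4823 HOXC10-alone sites, 16059 in all.

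All cells were mouse embryonic stem cells of the Ainv15 background, which formed embryoid bodies (EBs). For the day 3 lists they received retinoic acid (RA) and the Hedgehog pathway agonist SAG from day 0. Doxycycline (Dox) was added from day 2, and these cells were collected at day 3. Cells of the day 4 lists, read for comparison, were kept longer in Dox. The EBs without patterning signals, also read for comparison, had no RA or SAG and a shorter Dox treatment. The iFlag.Hoxc6 line gave the 2 HOXC6 libraries and the iFlag.Hoxc9 line the 2 HOXC9 libraries, all with an antibody to the Flag tag. Of the 3 HOXC10 libraries, 2 came from iFlag.Hoxc10 cells with the Flag antibody, and replicate 1 came from an iHoxc10.V5 line with another antibody. The HOXA9, HOXD9 and HOXC13 lists, read for comparison, each pooled a Flag-tagged line with an HA-tagged line. The HOXC8 list came from iFlag.Hoxc8 cells, and the Hox lists of day 4 and of EBs without patterning signals from Flag-tagged lines. MEIS lists, also read for comparison, came from iHoxc6.V5, iHoxc9.V5 and iHoxc10.V5 cells. Each line carries a single Dox-driven transgene at the Hprt locus, and each list averages over all cell types of the EB that respond to Dox. No expression data were analysed here, and the identity of the cells was not checked against markers.

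Hox proteins are homeodomain factors that give cells along the head-to-tail axis their position. HOXC6 belongs to the central group and acts at brachial levels, where motor neurons innervate the forelimb. HOXC10 belongs to the posterior group and acts at lumbar levels, where they innervate the hindlimb, and HOXC9 acts at the thoracic levels between them. Central factors are known to prefer the core TAAT and posterior factors TTTAT, and both can bind DNA together with PBX and MEIS, cofactors of the TALE class. Motor neurons that innervate limbs carry Foxp1, and some of them make retinoic acid with the enzyme Aldh1a2.

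The depth of the 2 lists was alike in order of size but unequal in quality. The HOXC6 list pooled 34.1 M reads with a signal fraction of 0.075, the share of reads that the caller assigned to events. The HOXC10 list pooled 45.03 M reads with a fraction of 0.097, and its libraries ranged from 5.04 M reads at 0.017, in the V5 line, to 21.8 M reads at 0.161. The HOXC9 list pooled 52.4 M reads at 0.284 and held 74067 events on the same chromosomes. The files give pooled values only, so no value below has an error between differentiations, no library could be left out, and no test was run. Intervals are 95% Wilson intervals over sites and cover counting error only.

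Sites among the strongest of each class are shown first, as 101 bp of mm10 centred on the event, plus strand, with TAAT and TTTAT on either strand in capitals. The shared sites shown are among those with the lowest sum of ranks in the 2 lists, and lie 36.9 kb from the start of Pter, 38.2 kb from the start of Olig2, the motor neuron progenitor gene, and 0.86 kb from a start of Hoxc5. The Hoxc5 site is shown because it lies within the HoxC cluster itself.
Pter, chr2:12887122-12887222: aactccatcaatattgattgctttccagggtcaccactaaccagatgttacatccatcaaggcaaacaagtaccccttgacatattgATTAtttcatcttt
Olig2, chr16:91187172-91187272: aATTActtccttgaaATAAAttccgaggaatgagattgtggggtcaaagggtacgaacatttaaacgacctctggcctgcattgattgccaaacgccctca
Hoxc5, chr15:103014625-103014725: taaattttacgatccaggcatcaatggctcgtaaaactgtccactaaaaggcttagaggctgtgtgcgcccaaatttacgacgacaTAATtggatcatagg

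The strongest HOXC6-alone sites lie in introns of Nrxn3, a presynaptic adhesion gene, and Robo2, a receptor for Slit guidance cues, and between genes, 50.4 kb from the start of Scrg1. These windows hold TAAT and no TTTAT. The HOXC6-alone window next in rank, nearest to Ipo11 and not shown, holds both.
Nrxn3, chr12:89149252-89149352: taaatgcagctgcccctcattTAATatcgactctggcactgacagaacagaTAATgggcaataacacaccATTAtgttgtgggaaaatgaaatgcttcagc
Robo2, chr16:74397702-74397802: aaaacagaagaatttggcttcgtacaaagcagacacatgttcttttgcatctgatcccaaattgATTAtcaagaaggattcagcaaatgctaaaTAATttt
Scrg1, chr8:57405445-57405545: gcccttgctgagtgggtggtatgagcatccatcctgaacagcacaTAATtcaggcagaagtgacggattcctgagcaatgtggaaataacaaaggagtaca

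The strongest HOXC10-alone sites lie in an intron of Nell2, 352 kb from the nearest start of Rarb, a retinoic acid receptor gene, and in an intron of Meis2, which encodes a Hox cofactor. The fifth, between genes and 337.5 kb from the start of Pkia, is shown for its repeated TTTAT. The Nell2 window holds neither core, and the other 3 hold TTTAT.
Nell2, chr15:95156971-95157071: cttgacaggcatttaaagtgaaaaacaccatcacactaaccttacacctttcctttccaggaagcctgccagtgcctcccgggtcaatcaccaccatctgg
Rarb, chr14:17170886-17170986: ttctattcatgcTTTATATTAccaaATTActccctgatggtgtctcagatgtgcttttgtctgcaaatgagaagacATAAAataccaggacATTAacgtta
Meis2, chr2:115943256-115943356: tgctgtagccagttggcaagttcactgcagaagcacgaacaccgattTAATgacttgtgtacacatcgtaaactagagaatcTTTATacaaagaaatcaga
Pkia, chr3:7029081-7029181: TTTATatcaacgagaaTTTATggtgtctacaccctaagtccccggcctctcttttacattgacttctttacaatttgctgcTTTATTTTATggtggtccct

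The first question was how much of their strongest binding the brachial and lumbar factors have in common. Of the top HOXC6 events, 6100 (61%, 60.04 to 61.95) had a HOXC10 event. Of the top HOXC10 events, 5177 (51.8%, 50.8 to 52.8) had a HOXC6 event. With both lists restricted to their top events, 39.8% (38.9 to 40.8) of the HOXC6 events had a HOXC10 event. Among the shared sites, 3982 were top events of both factors, 2118 were top events of HOXC6 only and 1236 were top events of HOXC10 only. Most partners lay at the same base, at 78.3% of shared HOXC6 events and 79.5% of shared HOXC10 events. The 2 lists and that of HOXC9 name each other in their comparison columns and share a control library of 20.6 M reads, so their positions were set in 1 run of the caller. Against the HOXC8 list, which came from another run, 7.53% of the HOXC6 events with a partner had it at the same base.

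Sharing fell with rank in both lists. Among the first 1000 events, 82.4% of HOXC6 and 80.3% of HOXC10 events were shared, and among the last 1000, 47.8% and 35%. Shared events were also the stronger ones. The median shared HOXC6 event held 3.59 assigned reads per M pooled reads (RPM), and the median HOXC6-alone event 2.79 RPM. For HOXC10 the medians were 4.16 and 3.21 RPM. The rank limit fell within a dense run of values, with 1.89 RPM for HOXC6 and 2.33 RPM for HOXC10 both at rank 10000 and at the rank after it. An alone site is a site without an event in the other list, whose weakest event held 0.977 RPM for HOXC10 and 0.88 RPM for HOXC6, and lower binding at such a site was not measured.

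**Figure D1:**
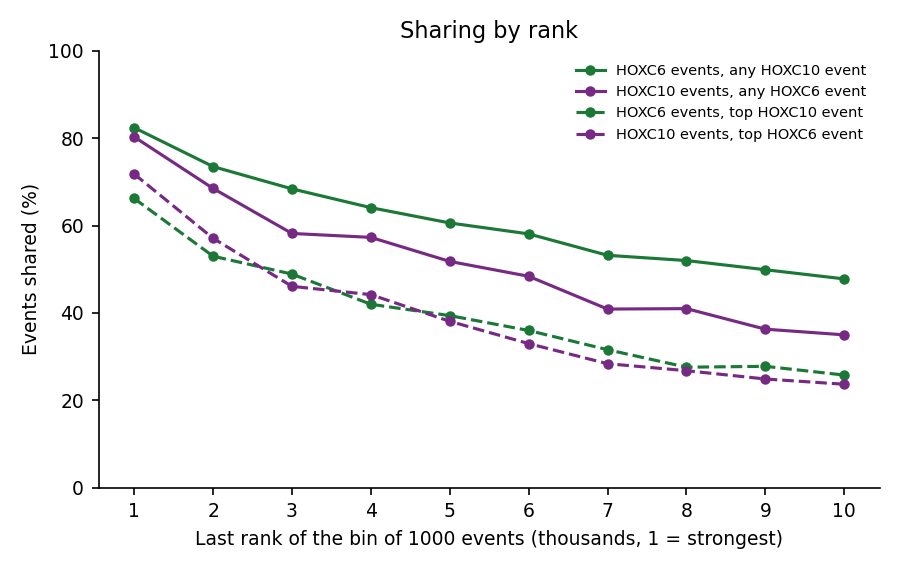
Share of events with a partner event within 100 bp (y axis, percent) in bins of 1000 events by rank (x axis, strongest at left), for HOXC6 (green) and HOXC10 (purple). Solid lines count any event of the other list and fall from 82.4% to 47.8% for HOXC6 and from 80.3% to 35% for HOXC10, and dashed lines count top events only.

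Some of the strongest sites of each factor had no event of the other at day 3. At the Nrxn3 site above, HOXC6 had 36.2 RPM, rank 11 of its list, and HOXC10 had no event at day 3. The Robo2 and Scrg1 sites had 23.3 and 21.8 RPM, and the next HOXC6-alone sites, nearest to Ipo11, Thbs1 and Nr2f1, had 21.6, 21.1 and 21.1 RPM. At the Nell2 site HOXC10 had 31.1 RPM at rank 10, and the Rarb and Meis2 sites had 28.5 and 24.3 RPM. A further Meis2 intron site had 22.1 RPM, the Pkia site 21.2 RPM and a site in an intron of Immp2l, nearest to the start of Lrrn3, 20.3 RPM. HOXC9 had an event at each of these HOXC10-alone sites. It had one at each of these HOXC6-alone sites except that nearest to Thbs1, at 1.015 to 22.6 RPM. HOXC8 at day 3 and HOXC6 at day 4 each had an event at all of these HOXC10-alone sites except the Pkia site. HOXC10 at day 4 had one at the Nrxn3 site and at no other of these HOXC6-alone sites.

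The position of the sites against genes hardly separated the classes. Only 2.45% (2.12 to 2.83) of shared sites lay within 1 kb of the transcription start site (TSS) of a protein-coding gene, and so did 2.15% (1.74 to 2.66) of HOXC6-alone and 3.40% (2.93 to 3.95) of HOXC10-alone sites. Introns held 43.3% of shared sites, 43.3% of HOXC6-alone and 43.8% of HOXC10-alone sites. The space between genes held 52.5%, 52.4% and 50.6%. The median distance to the nearest TSS was 71.5 kb for shared, 68.3 kb for HOXC6-alone and 76.7 kb for HOXC10-alone sites. By chromosome, 51.2% to 67% of HOXC6 events and 46.02% to 60% of HOXC10 events were shared, and chromosome X had both the lowest HOXC6 share and the highest HOXC10 share.

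The next question was whether the thoracic factor HOXC9 was present at these sites. It had an event at 94.8% (94.3 to 95.3) of shared sites and at 92.4% (91.6 to 93.1) of HOXC10-alone sites, but at 57.4% (55.8 to 58.9) of HOXC6-alone sites. Counted as events of both lists, 95.9% of shared events had HOXC9. The order of the classes was the same with lists of equal length. With the HOXC9 list reduced to the length of the HOXC6 list, HOXC9 was present at 69.1% of shared events, 49.4% of HOXC10-alone and 19.1% of HOXC6-alone sites. Where HOXC9 had an event, its median signal was 5.86 RPM at shared, 3.97 RPM at HOXC10-alone and 2.53 RPM at HOXC6-alone sites.

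The classes were also compared at matched rank. Among HOXC6 events of ranks 1 to 2000, 97.8% of the shared and 68.7% of the alone events had HOXC9. Among those of ranks 8001 to 10000 the shares were 91.7% and 51.0%. For HOXC10 the shares were 99.3% and 98.2% at ranks 1 to 2000, and 94.3% and 88.5% at ranks 8001 to 10000.

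The lists of the other factors were then read at the alone sites, with the share over all events of the full lists as background. HOXC8, a central factor of brachial levels, had events at 94.4% (93.7 to 95.1) of HOXC6-alone and 58.5% (57.1 to 59.9) of HOXC10-alone sites, close to its 90.2% of all HOXC6 and 61.2% of all HOXC10 events. The posterior factors HOXA9 and HOXD9 gave the opposite order, with 54.5% and 44.9% of HOXC6-alone sites and 91.5% and 89.1% of HOXC10-alone sites. Over all events HOXA9 was at 70.8% of HOXC6 and 83% of HOXC10 events, HOXD9 at 67.7% and 81.3%, and HOXC9 at 69.85% and 81.35%. HOXC13, the most posterior factor of the series, had events at 36.6% of shared, 14.6% of HOXC6-alone and 38.4% of HOXC10-alone sites. Over all events it was at 23.8% of HOXC6 and 31.5% of HOXC10 events, although its list was the longest of the day 3 Hox lists at 115819 events. Taken with HOXC9, 38.5% of HOXC6-alone sites had HOXC8 without HOXC9 and 1.44% had HOXC9 without HOXC8. Among HOXC10-alone sites the same shares were 3.67% and 37.6%. Both factors were present at 55.9% and 54.8% of the alone sites, and neither at 4.13% and 3.92%.

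**Figure D2:**
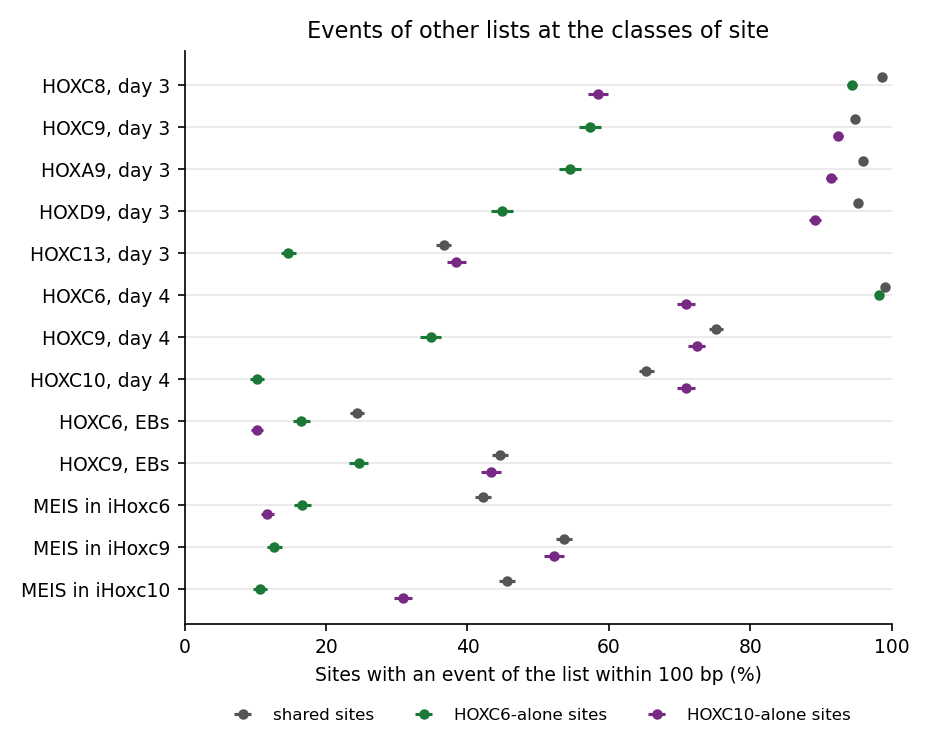
Share of sites (x axis, percent, bars are 95% Wilson intervals) with an event of each other list (y axis) within 100 bp, for shared (grey), HOXC6-alone (green) and HOXC10-alone (purple) sites. HOXC8 lies at 94.4% of HOXC6-alone sites against 58.5% of HOXC10-alone sites, and HOXC9 at 57.4% against 92.4%.

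Day 4 lists, from cells with 48 h of Dox, were not used to define the classes. HOXC6 at day 4 had an event at 98.2% of HOXC6-alone sites and at 99.1% of shared sites, and HOXC10 at day 4 had one at 10.21% (9.29 to 11.2) of HOXC6-alone sites and 65.3% of shared sites. At HOXC10-alone sites HOXC10 was present at day 4 at 70.95% and HOXC6, too, at 70.93% (69.6 to 72.2). Over all day 3 events, HOXC6 at day 4 was at 92.4% of HOXC6 and 70.4% of HOXC10 events. HOXC10 at day 4 was at 34.6% and 46.4% of them. The HOXC6 share at HOXC10-alone sites was thus near its share over all HOXC10 events. Only 16.7% of HOXC10-alone sites had a day 4 event of HOXC10 and none of HOXC6, while 88.1% of HOXC6-alone sites had one of HOXC6 and none of HOXC10. The day 4 lists differed in length in the same sense, with 69285 HOXC6 and 22024 HOXC10 events and signal fractions of 0.308 and 0.051. With the day 4 lists reduced to their top 10000 events, HOXC6 was present at 7.73% of HOXC10-alone sites and 53.4% of HOXC6-alone sites. HOXC10 was present at 47.8% and 4.41% of them. The part of depth in these shares was not tested.

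MEIS was assayed in 1 library per line, in lines with V5-tagged rather than Flag-tagged Hox factors. In iHoxc6.V5 cells MEIS had an event at 42.15% (41.02 to 43.3) of shared sites, 16.6% (15.5 to 17.8) of HOXC6-alone sites and 11.7% (10.8 to 12.6) of HOXC10-alone sites. In iHoxc10.V5 cells the shares were 45.6% (44.5 to 46.7), 10.6% (9.71 to 11.7) and 30.8% (29.5 to 32.1). Over all HOXC6 and all HOXC10 events, MEIS was at 24.95% and 17.7% in iHoxc6.V5 cells. In iHoxc10.V5 cells it was at 24.9% and 25.8% of these events. The iHoxc10.V5 list was the longer, with 12928 events against 8154, and single libraries give no measure of the spread between cultures, so no difference between the lines is drawn from these shares. In iHoxc9.V5 cells MEIS was present at 53.7% of shared, 12.6% of HOXC6-alone and 52.25% of HOXC10-alone sites, with the longest of the MEIS lists at 22703 events. It was at 29.85% of all HOXC6 and 39.4% of all HOXC10 events.

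Signal at the sites that both factors bind was compared through pairs of events that were each other's nearest within 100 bp, both in the top lists. There were 3925 such pairs, and the log2 ratio of HOXC10 over HOXC6 RPM had a median of 0.19 and quartiles of -0.49 and 0.78. HOXC10 was at least 2-fold higher in 713 pairs (18.2%) and HOXC6 in 511 pairs (13.0%). Among all 8971 pairs of the full lists, 18.2% were at least 2-fold higher for HOXC10 and 16.8% for HOXC6, against which the share for HOXC10 was equal and that for HOXC6 lower. The direction of the median depends on scaling. With signal given as a share of all assigned reads of each list, each ratio moved by -0.37, the median became -0.18, and 10.3% and 20.99% of pairs were 2-fold higher for HOXC10 and HOXC6. The share of calls in favour of HOXC10 then went from 58.25% to 32.8%. Differences in log2 ratio between sets of sites, given next, do not change with this scaling, but counts of 2-fold differences do. Across the top pairs the RPM values of the factors had a Spearman rho of 0.26, over sites of the same pooled libraries and with low values removed by the rank limits.

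**Figure D3:**
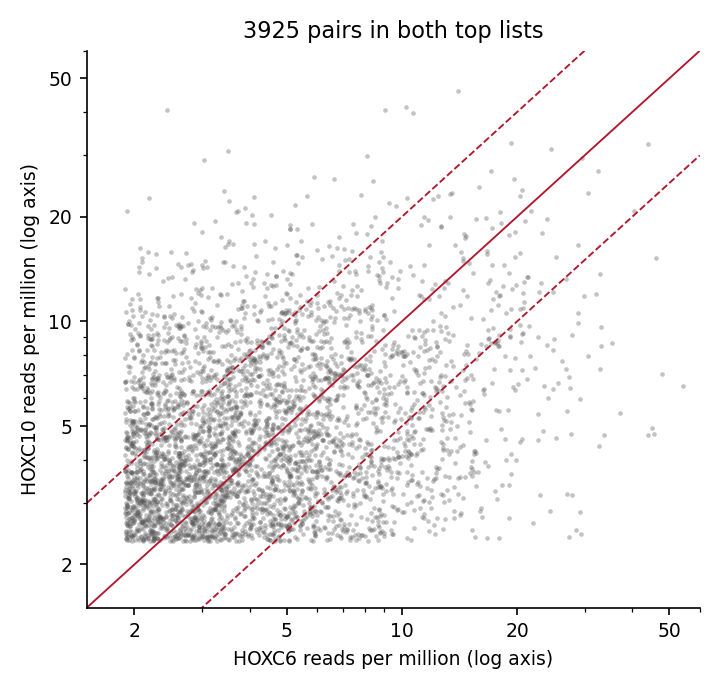
Assigned reads per M pooled reads of HOXC6 (x axis, log) and HOXC10 (y axis, log) at the 3925 pairs of events in both top lists, 1 point a pair. The solid line marks equal values and the dashed lines a 2-fold difference, beyond which lie 713 pairs for HOXC10 and 511 for HOXC6, and the straight lower edges are the rank limits at 1.89 and 2.33 RPM.

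The pair at each extreme of the ratio lay in an intron. In an intron of B3glct, HOXC10 had 40.6 RPM and HOXC6 2.43 RPM, a log2 ratio of 4.06. The sites next in order, nearest to St3gal1 and Epha7, had log2 ratios of 3.44 and 3.38. At the other end, in an intron of Pcdh15, HOXC6 had 29.3 RPM and HOXC10 2.45 RPM, a log2 ratio of -3.58. Sites nearest to Rack1 and Zfp703 had log2 ratios of -3.51 and -3.50. HOXC9 was weak at the Pcdh15 site, with 1.74 RPM, and strong at the Zfp703 site, with 82.99 RPM. The 2 most extreme windows are printed to show their cores, with TTTAT and TAAT in that of B3glct and TAAT alone in that of Pcdh15. Of those not printed, the St3gal1 and Zfp703 windows hold both cores, that of Rack1 TAAT alone and that of Epha7 neither.
B3glct, chr5:149751413-149751513: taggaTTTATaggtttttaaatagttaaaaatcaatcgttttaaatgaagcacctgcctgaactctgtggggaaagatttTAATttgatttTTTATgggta
Pcdh15, chr10:73875898-73875998: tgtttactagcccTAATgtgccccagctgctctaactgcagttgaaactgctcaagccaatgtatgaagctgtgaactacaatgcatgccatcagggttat

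The ratio was also taken a day later. Of the 3925 pairs, 3085 had events of both factors at day 4, in other libraries. These were 93.4% of the pairs at least 2-fold higher for HOXC10 at day 3, 69.5% of those higher for HOXC6 and 76.4% of the others, so the groups were filtered unequally. Pairs that were 2-fold higher for HOXC10 at day 3 had a median day 4 log2 ratio of -1.83, pairs that were 2-fold higher for HOXC6 had -4.31, and the others had -2.85. All 3 are negative in RPM, and the HOXC6 list at day 4 had the larger signal fraction. Across the 3085 pairs the ratios of the 2 days had a Spearman rho of 0.69, a description over sites that share their libraries within each day.

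Motifs were then searched within 50 bp of each event on either strand. TAAT was present at a like share in all classes, 75% (74 to 75.98) of shared, 74.7% of HOXC6-alone and 72.6% of HOXC10-alone sites, against 50.8% to 51.6% in windows 1 kb to each side. TTTAT separated them. It was present at 45.2% (44.1 to 46.3) of shared, 34.1% (32.6 to 35.6) of HOXC6-alone and 62.1% (60.8 to 63.5) of HOXC10-alone sites, against 32.5% to 32.6% in the side windows. The HOXC6-alone share thus exceeded its side windows by under 2 points, and the 2 alone classes differed by 28.0 points. Of 32851 promoter windows of the same length, centred on the gene starts of the RefSeq table of GRCm38, 23.25% held TAAT and 15.5% TTTAT.

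The difference was present at all ranks. In HOXC6-alone events the TTTAT share ran from 31.7% to 37.7% over 5 bins of 2000 ranks, and in HOXC10-alone events from 57.6% to 66.0%. HOXC9 divided the alone sites further. TTTAT was present at 39.3% of HOXC6-alone sites with HOXC9 and at 27.1% of those without it. Among HOXC10-alone sites the shares were 63.5% with HOXC9 and 45.4% without it. In HOXC10-alone sites that also lacked a HOXC6 event at day 4, the share was 66.6%, and in HOXC6-alone sites that lacked HOXC10 at day 4 it was 33.6%, a comparison chosen after the data were seen.

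Other motifs were searched in the same windows. The composite TGATTTAT, a PBX half-site joined to the posterior core, was found at 4.87% of shared, 1.87% of HOXC6-alone and 8.36% of HOXC10-alone sites, against 0.64% to 0.70% in the side windows. Its central counterpart TGATTAAT, which contains TAAT, was found at 1.47%, 1.103% and 1.62%, with overlapping intervals, against 0.38% to 0.42%. The core TTTAC, known for HOXC13, was at 29.5% of HOXC10-alone sites, and at 19.9% of shared and 17.4% of HOXC6-alone sites, where the side windows gave 18.8% to 19.4%. The MEIS motif TGACAG differed little, at 13.06% of shared, 12.0% of HOXC6-alone and 11.7% of HOXC10-alone sites, all above the 6.34% to 6.85% of the side windows. Of the motifs bound by neuronal bHLH factors, CAGATG was at 19.02%, 19.2% and 13.8% of sites and CAGCTG at 12.1%, 10.4% and 10.9%, with 7.36% to 7.71% and 4.06% to 4.21% in the side windows. The motif counts overlap where 1 motif contains another, and base composition was alike, with a median GC content of 42.6% in shared and 41.6% in both alone classes.

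**Figure D4:**
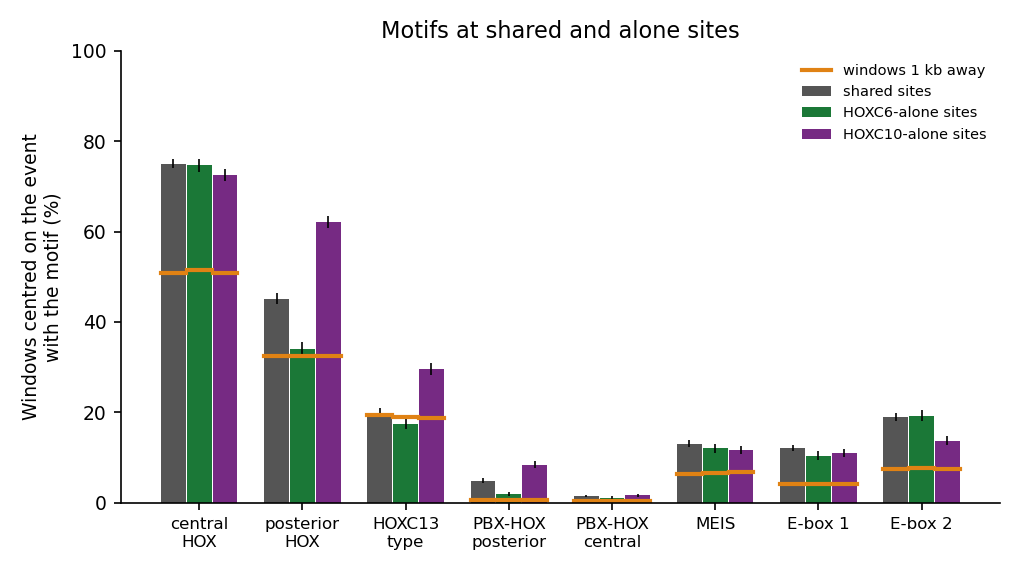
Share of windows of 101 bp centred on the event that hold each motif on either strand (y axis, percent, bars from 0 with 95% Wilson intervals) for shared (grey), HOXC6-alone (green) and HOXC10-alone (purple) sites, with the share 1 kb to each side in orange. The central core is at 72.6% to 75% in all classes and the posterior core at 45.2%, 34.1% and 62.1%. E-box 1 is CAGCTG and E-box 2 is CAGATG.

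The motifs were also counted along the ratio of the shared pairs. From the fifth of pairs most in favour of HOXC6 to the fifth most in favour of HOXC10, the TTTAT share went from 42.3% through 41.4%, 47.5% and 48.3% to 57.1%, and the TAAT share lay between 73.8% and 77.2% with no steady direction. The median log2 ratio was 0.08 in the 1549 pairs with TAAT only and 0.27 in the 442 with TTTAT only. In the 1415 pairs with both cores it was 0.29, and in the 519 with neither 0.16. The median was 0.56 in the 202 pairs with TGATTTAT. Of these, 63 (31.2%) were at least 2-fold higher for HOXC10 and 19 (9.4%) for HOXC6, against 18.2% and 13.0% of all 3925 pairs. MEIS in iHoxc10.V5 cells was present at 65.9% of the fifth most in favour of HOXC10 and at 53.1% to 54.0% of the others. MEIS in iHoxc6.V5 cells was most frequent in the fifth most in favour of HOXC6, at 59.2%, and was at 47.0% to 52.6% of the others.

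The third question was which genes lie near these sites. A protein-coding gene was counted as near a site within 50 kb of its body. Of all 21728 protein-coding genes, 19.6% had a shared site, 15.0% a HOXC6-alone site and 14.6% a HOXC10-alone site. By nearest TSS, the sites belonged to 3282, 2519 and 2477 genes. Of the genes nearest to a HOXC6-alone site, 57.1% were also nearest to a shared site and 43.95% to a HOXC10-alone site. Of those nearest to a HOXC10-alone site, 60.8% and 44.7% were also nearest to a shared and to a HOXC6-alone site.

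Of the 8 genes with the most shared sites, 4 were also among the 8 with the most HOXC10-alone sites. Zfp608, which encodes a zinc finger protein, had 41 shared, 10 HOXC6-alone and 30 HOXC10-alone sites nearest to its start. Auts2, a neurodevelopmental gene, had 32, 7 and 21, Robo2 had 25, 9 and 21, and Meis1 had 23, 5 and 14. Shared sites were next most numerous at Nr2f1, a nuclear receptor gene with 21, Efna5, an ephrin gene with 18, and Skap2 and Celf2 with 17 each. Skap2 lies next to the HoxA cluster. Dach1, a nuclear regulator, had 17 shared and 19 HOXC10-alone sites but 2 HOXC6-alone sites. Zfhx3, Arrdc3 and Got2 followed with 16, 15 and 13 HOXC10-alone sites. The farthest of these shared and HOXC10-alone sites lay 180.2 to 1664 kb from the start of their gene.

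HOXC6-alone sites were spread more thinly, with 8 to 12 at the leading genes. The gene with the most was Def8, with 12 HOXC6-alone sites and no shared or HOXC10-alone site. These lay within 6.79 kb (chr8:123426711-123433504) at 1.95 to 3.92 RPM. Of the 13 other lists read, 10 had no event at these sites, among them every other Hox list at day 3, and those with an event all came from iHoxc6 cells, 3 sites in HOXC6 at day 4, 5 in HOXC6 in EBs without patterning signals and 1 with MEIS. The part of the cell line in this group was not tested. Tenm4, a teneurin adhesion gene, had 11 HOXC6-alone sites, and also 9 shared and 13 HOXC10-alone sites. Adgrl2, Lrp1b and Fhit had 9 each and Tle4, a corepressor gene, had 8, with 3 to 7 HOXC10-alone sites.

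The motor neuron genes were described by lists. Of 11 motor column genes, 8 had a shared site (72.7%), 4 a HOXC6-alone and 5 a HOXC10-alone site (36.4% and 45.45%). Over all protein-coding genes the shares were 19.6%, 15.0% and 14.6%. The distinct sites of the motor column genes numbered 29 shared, 3 HOXC6-alone and 22 HOXC10-alone. The median log2 ratio at the shared ones was 0.83, against -0.02 over all shared sites. Foxp1 accounted for 13 shared, 1 HOXC6-alone and 11 HOXC10-alone sites. Lhx4, a LIM factor of early motor neurons, had 3 shared and 4 HOXC10-alone sites, Mnx1, a motor neuron determinant, 3 and 3, and Lhx3 3 and 2. Isl1 and Nos1, named after their values were seen, had no site of any class. Of 12 motor pool genes, 9 had a shared, 5 a HOXC6-alone and 6 a HOXC10-alone site (75%, 41.7% and 50%). The median motor pool gene spans 68.5 kb against 17.4 kb for all protein-coding genes, and long genes come within reach of more sites. Gfra1, which encodes a GDNF co-receptor, had 3 shared and 9 HOXC10-alone sites. Of genes named after their values were seen, Runx1 and Cdh8 had HOXC6-alone sites only, 1 and 2, and Etv1 had none.

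The Hox clusters held sites of both factors. Of 39 Hox genes, 34 had a shared (87.2%), 24 a HOXC6-alone (61.5%) and 36 a HOXC10-alone site (92.3%). Over all protein-coding genes the shares were 19.6%, 15.0% and 14.6%. Within 50 kb of the cluster genes, HoxA held 19 shared, 3 HOXC6-alone and 9 HOXC10-alone sites, HoxB 10, 2 and 8, HoxC 10, 1 and 5, and HoxD 10, 0 and 7. The median log2 ratio at the shared sites was 0.74, 0.39, 1.26 and 0.63, and 15 of 19, 7 of 10, 9 of 10 and 6 of 10 lay above the median of all shared sites. Sites thinned out towards the 5′ end of HoxC. Hoxc4 had 10 shared sites within 50 kb and Hoxc10 1, and Hoxc12 and Hoxc13 had none. Hoxa13, Hoxc11 and Hoxd13 had 2, 1 and 3 HOXC10-alone sites and no HOXC6-alone site. Hoxd13 also had 2 shared sites, and no HoxD gene had a HOXC6-alone site. Neighbouring genes share sites in these counts, and the single genes were picked after their values were seen. No top event of either factor lay within Hoxc10 or Hprt, and the 1 within Hoxc6 was of HOXC10.

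Cofactor genes were near sites of both factors. Of 9 cofactor genes, 6 had a shared, 4 a HOXC6-alone and 7 a HOXC10-alone site (66.7%, 44.4% and 77.8%). Over all protein-coding genes the shares were 19.6%, 15.0% and 14.6%. The median cofactor gene spans 139.2 kb against 17.4 kb for all protein-coding genes, and long genes come within reach of more sites. Within 50 kb, Meis1 had 14 shared, 4 HOXC6-alone and 7 HOXC10-alone sites, Meis2 10, 2 and 9 and Pbx3 6, 0 and 6. The median log2 ratio at the shared sites of the list was 0.34.

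Axon guidance genes were the list with the most distinct sites of every class, 103 shared, 50 HOXC6-alone and 78 HOXC10-alone. Of 30 genes, 24 had a shared (80%), 22 a HOXC6-alone (73.3%) and 18 a HOXC10-alone site (60%). Over all protein-coding genes the shares were 19.6%, 15.0% and 14.6%. The median gene of the list spans 190 kb against 17.4 kb for all protein-coding genes, and long genes come within reach of more sites. Robo2 had 15 shared, 5 HOXC6-alone and 12 HOXC10-alone sites, and Slit3, a Robo ligand gene, had 6, 2 and 14. Dcc, a netrin receptor gene, had 9, 4 and 6, Slit2 5, 2 and 8, Epha3, an ephrin receptor gene, 7, 3 and 5 and Efna5 7, 2 and 5. Of genes named after their values were seen, Unc5c, another netrin receptor gene, had 9, 2 and 0 and Epha4, a receptor that guides limb motor axons, 5, 0 and 5. The median log2 ratio at the shared sites of the list was 0.20, with 30 sites 2-fold higher for HOXC10 and 22 for HOXC6 of 103. Over all 7336 shared sites the median was -0.02 and the counts were 1607 and 1532.

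Neuronal transcription factors and retinoic acid genes have median lengths of 76.1 and 29.5 kb. Of 19 neuronal factors, 15 had a shared, 10 a HOXC6-alone and 15 a HOXC10-alone site (78.95%, 52.6% and 78.95%, against 19.6%, 15.0% and 14.6% of all genes). Ebf1 had 13, 4 and 6, Zfhx3 10, 4 and 13, Zfhx4 8, 1 and 5 and Ebf3 7, 1 and 10. Of 16 retinoic acid genes, 10 had a shared site (62.5%), 2 a HOXC6-alone and 4 a HOXC10-alone site (12.5% and 25%). With 2 genes of 16, the HOXC6-alone share is near the 15.0% of all genes. Rarb had 7 shared, 1 HOXC6-alone and 2 HOXC10-alone sites and Cyp26b1, which encodes an enzyme that degrades retinoic acid, 3, 1 and 0.

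The sites at the limb-level genes Foxp1 and Aldh1a2 are given one by one. At Foxp1 (ENSMUSG00000030067.17, minus strand, chr6:98925338-99522721) all 25 sites lay in introns. The strongest HOXC6 site, 174.6 kb into the gene, had 12.6 RPM for HOXC6, 6.91 RPM for HOXC10 and 44.9 RPM for HOXC9. The HOXC10 event there was also the nearest to a HOXC6 event 80 bp away with 7.12 RPM. HOXC10 was strongest 332.6 kb into the gene, with 10.5 RPM against 5.48 RPM for HOXC6. Among the other shared sites, HOXC10 was at least 2-fold higher at 502.7, 386.5 and 315.8 kb, with log2 ratios of 1.79, 1.90 and 1.45. HOXC6 was at least 2-fold higher at 528.5, 486.6 and 83.2 kb, with log2 ratios of -1.38, -1.94 and -1.07. Of the 11 HOXC10-alone sites, the highest had 7.35 RPM at 121.5 kb, and 4 lay between 186.3 and 187.4 kb with 2.49 to 6.58 RPM. The single HOXC6-alone site had 2.09 RPM. HOXC9 had an event at all but 2 of the 25 sites, the shared site at 486.6 kb and the HOXC10-alone site at 316.1 kb. Over the whole genome it had one at 94.8% of shared and 92.4% of HOXC10-alone sites, and at 85% of sites of all classes.
Foxp1, chr6:99348109-99348209: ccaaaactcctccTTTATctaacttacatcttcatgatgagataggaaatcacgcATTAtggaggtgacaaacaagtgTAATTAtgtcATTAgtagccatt

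At Aldh1a2 (ENSMUSG00000013584.5, plus strand, chr9:71215789-71296243) all 4 sites were shared and all had HOXC9, as did 94.8% of all shared sites. At 25.9 kb into the gene, in an intron, HOXC10 had 29.1 RPM, rank 14 of its list, and HOXC6 had 3.04 RPM, a log2 ratio of 3.26. At 1.601 kb into the gene the values were 9.32 and 1.24 RPM, a log2 ratio of 2.91. Upstream the order was mixed. At 40.1 kb before the start HOXC6 had 13.5 RPM and HOXC10 5.14 RPM, a log2 ratio of -1.39, and at 48.1 kb before the start, in an exon of Aqp9, HOXC6 had 1.68 and HOXC10 2.99 RPM. The intron site is printed because it has the fourteenth highest HOXC10 value, and it holds TAAT without TTTAT.
Aldh1a2, chr9:71241666-71241766: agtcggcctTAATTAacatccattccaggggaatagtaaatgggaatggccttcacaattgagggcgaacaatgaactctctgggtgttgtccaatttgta

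**Figure D5:**
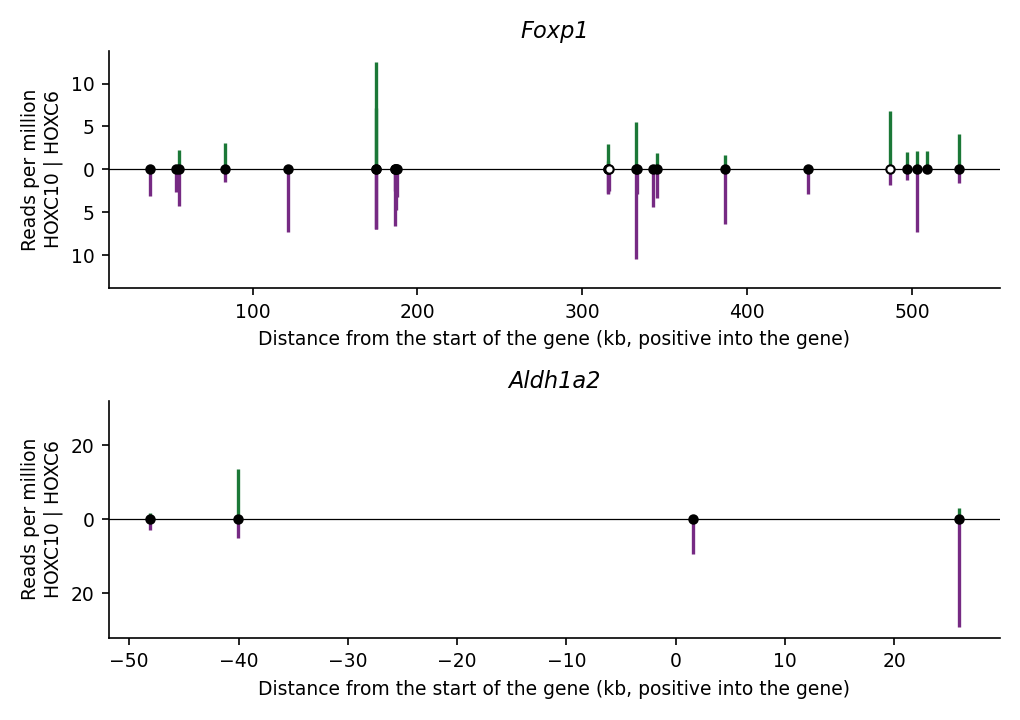
Sites within 50 kb of Foxp1 and Aldh1a2 by distance from the start of the gene (x axis, kb), with HOXC6 RPM drawn up in green and HOXC10 RPM drawn down in purple. Filled circles mark sites with a HOXC9 event and open circles sites without one. The tallest bars are 12.6 RPM of HOXC6 and 10.5 RPM of HOXC10 at Foxp1 and 29.1 RPM of HOXC10 at Aldh1a2.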

How the data were processed

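ChIP-seq reads were aligned by the authors to mm10 with Bowtie (1.0.1), which kept uniquely placed reads, and events were called with MultiGPS on pooled libraries against a control. The deposited lists give, per event, an estimated count of ChIP reads, used here divided by pooled reads, and a log2 q-value, treated here as a score for ranking. Per the file headers, deposited columns of edgeR comparisons between conditions were also present and were not used. Members and gene lists were chosen with earlier results of these data known.

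Events on chromosomes 1 to 19 and X were ranked by estimated count. Shared sites merge both lists within 100 bp. Genes are those of GENCODE M21 on GRCm38, the assembly of mm10. No event of 750594 lay past a chromosome end, and 5000 of 5000 checked HOXC9 sequences were found at their event. Named genes were up to 6 a list with the most sites, 8 a class by nearest TSS, and the sites first by rank or ratio or at Foxp1 and Aldh1a2. Motif search and matching were tested on simulated data (Python 3.11.15, pandas 2.3.3, pysam 0.24.0). The lists pool libraries, so no test was run, and the alternatives tried are given in the closing section. A few items that the naming rule selects are not reported here.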

Additional observations from a re-analysis of the deposited data

How the results depend on the processing

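No paired analysis was possible because the lists hold pooled libraries, and for the same reason no replicate could be left out. Of 48 alternatives to 9 values, 13 stayed within the counting interval, including all but 1 of those that ranked events by q-value, where HOXC10-alone sites with HOXC9 were 91.3%. Fewer events raised sharing with the full list of the other factor and lowered sharing between top lists. With the top 2000, 5000 and all events, 77.95%, 69.8% and 50.6% of HOXC6 events and 74.4%, 63.2% and 33.5% of HOXC10 events were shared, and with the top 2000 and 5000 of both lists, 28.75% and 35.7%. Distances of 50 and 200 bp gave 55.65% and 65.3% for HOXC6, 47.7% and 54.4% for HOXC10 and 36.7% and 42.5% between top lists. With the HOXC10 list reduced to the length of the HOXC6 list, 53.0% of HOXC6 events were shared. The median log2 ratio turned to -0.18 as a share of assigned reads and to -0.19 when scaled by pooled reads times signal fraction, and was 0.051 over all pairs of the full lists. With lists of equal length, HOXC9 was present at 69.1% of shared events, counted over both lists, and at 19.1% and 49.4% of HOXC6-alone and HOXC10-alone sites. In the same order, its top 10000 events gave 51.6%, 10.5% and 30.3%, and a distance of 50 bp gave 91.25%, 53.5% and 87.8%. Without a day 4 event of the other factor, a choice made after the data were seen, the alone shares were 55.0% and 90.8%, and the TTTAT difference was 33.0 points. That difference was 22.6 points within 25 bp and 12.8 points for TTAT. TSSs lay near 8.94% of shared sites within 5 kb and near 6.03% with all genes counted. The V5 library of HOXC10 and unequal depth limit all shares.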

Other observations

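HOXC6 and HOXC9 were also mapped in EBs that received no patterning signals and a shorter Dox treatment than the day 3 cells. HOXC6 events there lay at 24.4% (23.4 to 25.4) of the shared sites, 16.5% (15.4 to 17.7) of HOXC6-alone and 10.3% (9.44 to 11.2) of HOXC10-alone sites. HOXC9 events there lay at 44.6%, 24.6% and 43.3%, with a list of 128322 events against 44678 for HOXC6. Over all HOXC6 and all HOXC10 events of day 3, the shares were 18.1% and 13.9% for HOXC6 in EBs. For HOXC9 in EBs they were 31.7% and 36.5%.

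Progenitor and pluripotency genes and adhesion genes completed the lists. Of 18 ventral progenitor genes, 13 had a shared, 7 a HOXC6-alone and 11 a HOXC10-alone site (72.2%, 38.9% and 61.1%, against 19.6%, 15.0% and 14.6% of all protein-coding genes), and Olig2 had 4, 2 and 2. Gli2, an effector of Hedgehog signalling, had 3 HOXC6-alone and 2 HOXC10-alone sites and no shared site. Of 13 type II cadherin genes, which encode adhesion proteins that sort motor neurons, 8, 3 and 5 had such sites (61.5%, 23.1% and 38.5%), with a median log2 ratio of -0.05 at their shared sites. The median cadherin gene spans 153.5 kb against 17.4 kb for all protein-coding genes, and long genes come within reach of more sites. Of 14 pluripotency genes, 5 had a shared, 1 a HOXC6-alone and 2 a HOXC10-alone site (35.7%, 7.14% and 14.3%), where the last share is near that of all genes.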
